A study of Mus musculus with 8 samples.

Results

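Macrophage and leukocyte genes were followed in the deposited expression table of cultured mouse bone marrow stromal cells. The 10 genes were Ptprc, Cd68, Csf1r, Adgre1, Lyz2, Cd14, Tyrobp, Fcer1g, Mrc1 and Ctss, chosen by symbol out of 21935 genes in the table, and each symbol had 1 row. The cells are labelled as a wild-type mouse line of bone marrow mesenchymal stem cells (BMSCs) that was bought from a supplier and put through osteogenic differentiation, which all groups share. The 8 samples cover polycaprolactone (PCL, a degradable polyester) scaffolds with SS31, with E7, with both peptides, and PCL alone, each at day 3 and day 7. Medium was conditioned by soaking scaffolds in it for 72 h. SS31 is known as a mitochondria-directed peptide, and E7 as one that binds mesenchymal stem cells. The table holds 4 libraries, named PCL-R, PCL-B, PCL-R-B and PCL. The names were read as PCL with 1 addition, PCL with 1 addition, PCL with 2 additions and PCL alone, and the labels do not say which peptide R or B stands for. No library name gives a day, and whether a library pools several samples is not given in the sources used here. Every value below is therefore given by library name, no value is assigned to SS31 or E7, and the PCL library serves as the reference. With 1 library per name there are no replicates, so no difference has a replicate check or is known to exceed the spread between cultures, no p-value is given, and all intervals are 95% intervals that cover counting error only. Ratios are of counts scaled to the summed gene counts, the 3 ratios to PCL share that library, and reads copied by PCR are not independent molecules.

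Leukocytes share the surface phosphatase CD45, encoded by Ptprc. Macrophages arise from myeloid precursors under the transcription factor PU.1 (Spi1) and depend on the receptor CSF1R, whose ligands CSF1 and IL-34 are made by stromal and other tissue cells. Cultures grown from bone marrow by adherence can carry macrophages over from the marrow, and these genes are commonly read as markers of such cells.

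The promoters of 4 of the genes are shown because they belong to genes at opposite ends of the measured range, Cd68 and Lyz2 with reads in every library and Ptprc and Ctss with at most 1 read in any. Each run is the 250 bases before a RefSeq transcription start, written 5′ to 3′ on the gene's strand, build GRCm38.p6, and capitals mark the hexamer GAGGAA, the core of the PU box that PU.1 binds, searched on both strands (reverse complement TTCCTC).
Cd68 (chr11:69666171-69666420, minus strand): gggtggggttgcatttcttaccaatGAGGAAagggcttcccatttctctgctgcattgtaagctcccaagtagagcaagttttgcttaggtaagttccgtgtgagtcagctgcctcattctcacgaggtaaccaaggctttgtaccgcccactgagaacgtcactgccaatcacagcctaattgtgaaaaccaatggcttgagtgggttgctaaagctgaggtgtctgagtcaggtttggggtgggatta
Lyz2 (chr10:117282273-117282522, minus strand): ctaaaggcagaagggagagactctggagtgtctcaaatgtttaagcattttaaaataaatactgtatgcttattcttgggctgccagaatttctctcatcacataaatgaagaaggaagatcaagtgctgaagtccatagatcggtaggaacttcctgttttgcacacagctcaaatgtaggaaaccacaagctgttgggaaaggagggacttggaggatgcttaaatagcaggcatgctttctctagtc
Ptprc (chr1:138175306-138175555, minus strand): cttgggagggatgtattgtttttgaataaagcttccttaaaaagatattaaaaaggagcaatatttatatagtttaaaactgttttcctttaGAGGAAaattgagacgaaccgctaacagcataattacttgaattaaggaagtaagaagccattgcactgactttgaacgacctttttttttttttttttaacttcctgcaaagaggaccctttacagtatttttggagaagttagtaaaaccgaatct
Ctss (chr3:95526536-95526785, plus strand): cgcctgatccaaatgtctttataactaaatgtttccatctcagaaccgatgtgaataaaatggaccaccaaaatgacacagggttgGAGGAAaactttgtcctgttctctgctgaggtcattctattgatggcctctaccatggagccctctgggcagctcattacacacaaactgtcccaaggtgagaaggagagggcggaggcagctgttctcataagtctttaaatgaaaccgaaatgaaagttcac

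RefSeq promoters were found for 6 of the 10 genes, with 2 starts for Ptprc. The hexamer began 225 bases before the Cd68 start, 158 bases before the Ptprc start shown and 164 bases before the Ctss start. It was not in the Lyz2 window, the Fcer1g window or the window of the other Ptprc start, and the Mrc1 window held it 3 times on the opposite strand. Of all 32851 promoter windows of this length, 23.3% held it on either strand. A match is a description of the letters and does not show a bound site. Spi1 itself had 1, 1 and 0 reads in the PCL-R, in the PCL-B and in the PCL-R-B libraries, against 1 read in PCL.

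Stromal transcripts were abundant, and osteoblast transcripts were present in part. The libraries held 16811326, 17816789 and 15922734 counted reads in PCL-R, in PCL-B and in PCL-R-B, against 14619380 in PCL. Of 20 stromal marker genes, 17 reached 1 FPKM (the read count scaled to gene length and to the reads counted in the library) in every library, and the median gene of the list averaged 67.8 FPKM. Of all genes in the table, 45.8% reached 1 FPKM in every library. Vim, an intermediate filament gene, averaged 1567 FPKM, and the niche chemokine gene Cxcl12 averaged 755 FPKM. Lum, Nt5e and Lepr, also on the list, stayed below 1 FPKM. Among 10 osteoblast genes, 3 reached 1 FPKM in every library, beside 45.8% of all genes. Spp1 averaged 654 FPKM, Runx2, the lineage transcription factor, averaged 5.02 FPKM and Dlx5 averaged 3.14 FPKM. Spp1 had 420, 606 and 488 FPKM in PCL-R, in PCL-B and in PCL-R-B, against 1104 FPKM in PCL. Alpl, the alkaline phosphatase gene, had 0.059, 0.237 and 0.218 FPKM in PCL-R, in PCL-B and in PCL-R-B, against 0.492 FPKM in PCL. The summed FPKM of the stromal list was 6760, 6065 and 6366 in PCL-R, in PCL-B and in PCL-R-B, against 4599 in PCL. Among its 18 genes with a mean count of at least 10, the median log2 ratio to PCL was 0.59, 0.36 and 0.47. The PCL library thus stood lower for the list as a whole, but not for every gene. Cxcl12 was highest in PCL, at 872 FPKM, against 701, 792 and 655 FPKM. The summed FPKM of the osteoblast list was also highest in PCL, at 1115, against 429, 619 and 498. That sum was almost wholly Spp1. Among the 7 osteoblast genes with a mean count of at least 10, the median log2 ratio to PCL was -0.41, -0.04 and -0.16. Dlx5 went the other way from Spp1, with ratios to PCL of 1.85, 2.28 and 1.46. The part of the PCL library in the ratios to PCL given below was not tested.

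Reads of the leukocyte genes lay almost wholly in Cd14, Cd68 and Lyz2. Of the 10, 3 (Cd14, Cd68 and Lyz2) reached 1 FPKM in every library, beside 45.8% of all genes in the table. The other 7 stayed below 1 FPKM in all 4 libraries. The 10 genes together drew 1828 reads over the 4 libraries, of which Cd14, Cd68 and Lyz2 took 1768 (96.7%) and the other 7 took 60. Adgre1 and Tyrobp had 0 reads in all 4 libraries, as did 26.7% of all genes. Together with Ptprc and Ctss, which had at most 1 read in any library, 4 of the 10 genes were at or under 3 reads in every library, as were 36.4% of all genes. Neither share sets the 10 genes apart from the table.

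**Figure D1:**
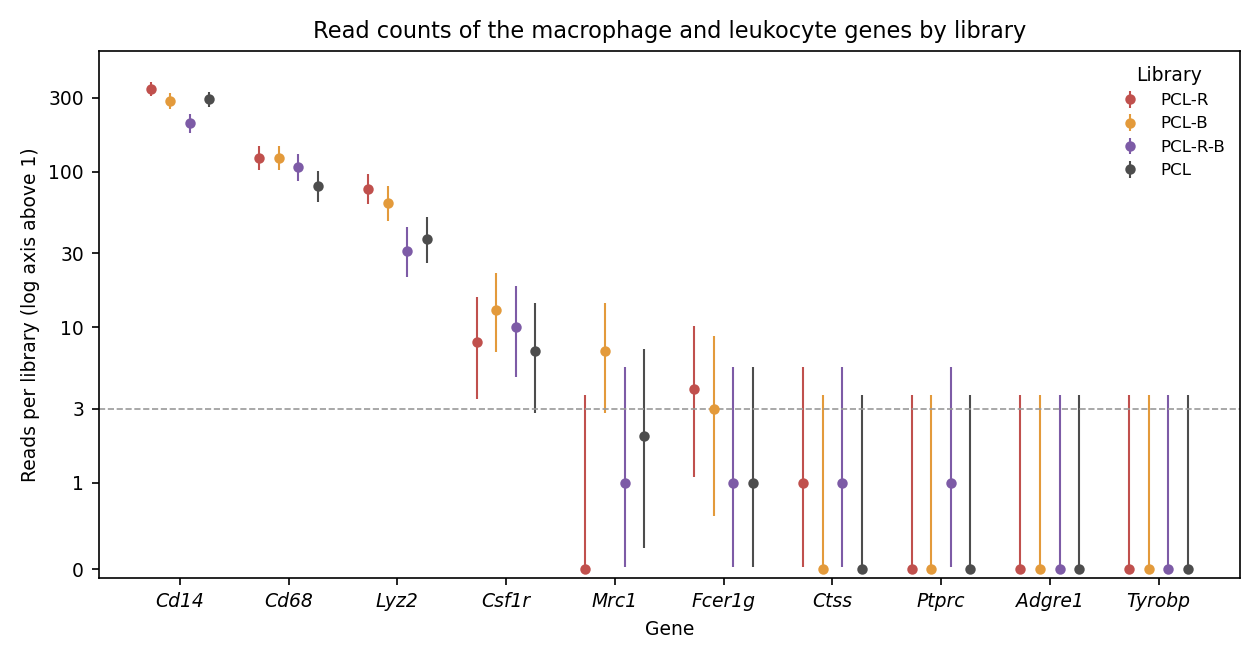
Reads of each of the 10 genes (horizontal axis) in the libraries PCL-R, PCL-B, PCL-R-B and PCL, on a logarithmic axis above 1 read; points are counts, bars are exact 95% Poisson intervals and the dashed line marks 3 reads. Cd14, Cd68 and Lyz2 lie between 31 and 341 reads, Csf1r between 7 and 13, and the remaining genes at 7 reads or fewer.

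Of the leukocyte and macrophage surface genes among the 10, Ptprc, Adgre1 and Mrc1 were at or near 0. Ptprc (ENSMUSG00000026395, chromosome 1, 138062861 to 138175708, minus strand) had 0, 0 and 1 reads in PCL-R, in PCL-B and in PCL-R-B, against 0 reads in PCL. Its counted length is 18313 bases, so that 3 reads, the floor set here for a count of 0, would correspond to 0.00974, 0.00919 and 0.0103 FPKM in PCL-R, in PCL-B and in PCL-R-B, against 0.0112 FPKM in PCL. The two-sided 95% interval of 0 reads reaches 3.69 reads, somewhat above that floor, and that of the 1 read in PCL-R-B reaches 5.57 reads. Ptprc has the longest counted length of the 10 genes and so the lowest floor.

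Adgre1 (ENSMUSG00000004730, chromosome 17, 57358691 to 57483527, plus strand) encodes F4/80, the adhesion receptor used to identify mouse macrophages. It had 0 reads in each library, and the floor of 3 reads stood at 0.0551, 0.052 and 0.0582 FPKM in PCL-R, in PCL-B and in PCL-R-B, against 0.0634 FPKM in PCL. Mrc1 (ENSMUSG00000026712, chromosome 2, 14229392 to 14332057, plus strand) encodes the mannose receptor CD206 of tissue macrophages. It had 0, 7 and 1 reads in PCL-R, in PCL-B and in PCL-R-B, against 2 reads in PCL, and its highest level was 0.0617 FPKM in PCL-B. The ratio of PCL-B over PCL was 2.87 with an interval of 0.547 to 28.3, so the direction was not resolved at this depth. The related receptor gene Mrc2, which encodes the collagen-binding Endo180 of stromal cells, had 60.1, 69 and 60.3 FPKM in PCL-R, in PCL-B and in PCL-R-B, against 54.9 FPKM in PCL. Transcripts of Mrc2 were thus abundant where those of Mrc1 were nearly absent.

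The paired signalling adaptors were nearly silent. Tyrobp (ENSMUSG00000030579, chromosome 7, 30413760 to 30417585, plus strand) encodes DAP12 and Fcer1g (ENSMUSG00000058715, chromosome 1, 171229572 to 171234365, minus strand) encodes the Fc receptor gamma chain, small transmembrane proteins whose tyrosine motifs (ITAMs) pass signals from many myeloid receptors to the kinase SYK. Tyrobp had 0 reads in each library. It is short, 667 bases, so the floor of 3 reads is higher than for Ptprc, at 0.268, 0.252 and 0.282 FPKM in PCL-R, in PCL-B and in PCL-R-B, against 0.308 FPKM in PCL. Fcer1g had 4, 3 and 1 reads in PCL-R, in PCL-B and in PCL-R-B, against 1 read in PCL. Its ratio of PCL-R over PCL was 3.48 with an interval of 0.344 to 171, so no order of libraries could be read from it. Hcst, the gene of the related adaptor DAP10, had 0 reads in every library. Of 21 listed adaptor genes and their partners, including Tyrobp and Fcer1g, only Sirpa and Syk reached 1 FPKM in every library. Of all genes, 45.8% did so. Sirpa, the gene of the CD47 receptor, which is also found outside leukocytes, averaged 16.1 FPKM and Syk averaged 3.14 FPKM. Trem2, whose receptor signals through DAP12, had 22, 32 and 11 reads in PCL-R, in PCL-B and in PCL-R-B, against 21 reads in PCL, so a few reads of the receptor were counted where the adaptor had none.

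Ctss, the cathepsin of antigen-presenting cells, was nearly absent where other cathepsins were abundant. Ctss (ENSMUSG00000038642, chromosome 3, 95526786 to 95556403, plus strand) had 1, 0 and 1 reads in PCL-R, in PCL-B and in PCL-R-B, against 0 reads in PCL. Among 18 cathepsin genes found by symbol it ranked 12 by mean FPKM, at 0.0225. The aspartic protease gene Ctsd led with a mean of 232 FPKM, followed by Ctsb with 209 and Ctsz with 208 FPKM. Ctss overlaps the pseudogene Hmgb1-ps5 and Ptprc overlaps A130071D04Rik on its own strand, so their single reads cannot be assigned with certainty. Of 23 listed lysosomal genes, which include Ctss and Cd68, 20 reached 1 FPKM in every library, beside 45.8% of all genes.

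The receptor of the macrophage growth factor CSF1 was present as a few reads. Csf1r (ENSMUSG00000024621, chromosome 18, 61100598 to 61132149, plus strand) had 8, 13 and 10 reads in PCL-R, in PCL-B and in PCL-R-B, against 7 reads in PCL. These correspond to 0.0824, 0.126 and 0.109 FPKM, against 0.0829 FPKM in PCL. The ratio of every pair of libraries had an interval that included 1, the highest over the lowest included (1.53, interval 0.589 to 4.27). Csf1r overlaps Hmgxb3 on the opposite strand, and the sources used here do not say whether reads were counted by strand, so reads from the shared bases cannot be told apart.

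The ligands of CSF1R had many more reads than the receptor. Csf1 had 169, 194 and 195 FPKM in PCL-R, in PCL-B and in PCL-R-B, against 193 FPKM in PCL. The FPKM of Csf1 was 2054, 1533 and 1796 times that of Csf1r in PCL-R, in PCL-B and in PCL-R-B, against 2324 times in PCL. Il34, the second ligand, had 116, 113 and 105 reads in PCL-R, in PCL-B and in PCL-R-B, against 24 reads in PCL. Its ratio to PCL was 4.2 (interval 2.69 to 6.82) for PCL-R, 3.86 (2.47 to 6.28) for PCL-B and 4.02 (2.56 to 6.55) for PCL-R-B. The receptors Csf2rb and Csf3r for other colony-stimulating factors had 0 reads in every library.

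Cd14 had the most reads of the 10 genes and was lowest in PCL-R-B. Cd14 (ENSMUSG00000051439, chromosome 18, 36725067 to 36726798, minus strand) encodes the co-receptor that hands lipopolysaccharide (LPS) to the TLR4 complex. It had 341, 286 and 206 reads in PCL-R, in PCL-B and in PCL-R-B, against 292 reads in PCL. These are 11.7, 9.27 and 7.47 FPKM, against 11.5 FPKM in PCL. The interval of PCL-R over PCL included 1 (ratio 1.02, interval 0.866 to 1.19). PCL-B stood below PCL (0.804, interval 0.68 to 0.949), and PCL-R-B stood below PCL (0.648, interval 0.539 to 0.777) and below PCL-B (0.806, interval 0.67 to 0.967). In bulk RNA, fewer cells of a type and less RNA per cell cannot be told apart.

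Lbp, Tlr4 and Ly96, which act with Cd14 in LPS recognition, were expressed too. The list of 14 genes, Cd14 included, also holds other Toll-like receptors and downstream signalling genes. Of these 14, 13 reached 1 FPKM in every library, all but the adaptor Ticam2, beside 45.8% of all genes. Lbp, the gene of the serum protein that loads LPS onto CD14, had 82.2, 94 and 79.5 FPKM in PCL-R, in PCL-B and in PCL-R-B, against 76.9 FPKM in PCL. Tlr4, the signalling receptor, had 6.25, 7.82 and 7.55 FPKM in PCL-R, in PCL-B and in PCL-R-B, against 7.49 FPKM in PCL. Ly96, the gene of the TLR4 partner MD-2, had 4.25, 4.56 and 3.26 FPKM in PCL-R, in PCL-B and in PCL-R-B, against 4.09 FPKM in PCL. The order of libraries for Cd14 was not that of Tlr4, which was lowest in PCL-R (ratio to PCL 0.835, interval 0.744 to 0.937). Tlr6, the partner of TLR2, was the only gene at least 2-fold higher, in PCL-R, among the 13 listed with a mean count of at least 10. It had 190 reads in PCL-R, against 80 reads in PCL (ratio 2.07, interval 1.58 to 2.72). Of all genes with that mean count, 3.95% were at least 2-fold higher in PCL-R, so 1 of 13 does not set the list apart.

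**Figure D2:**
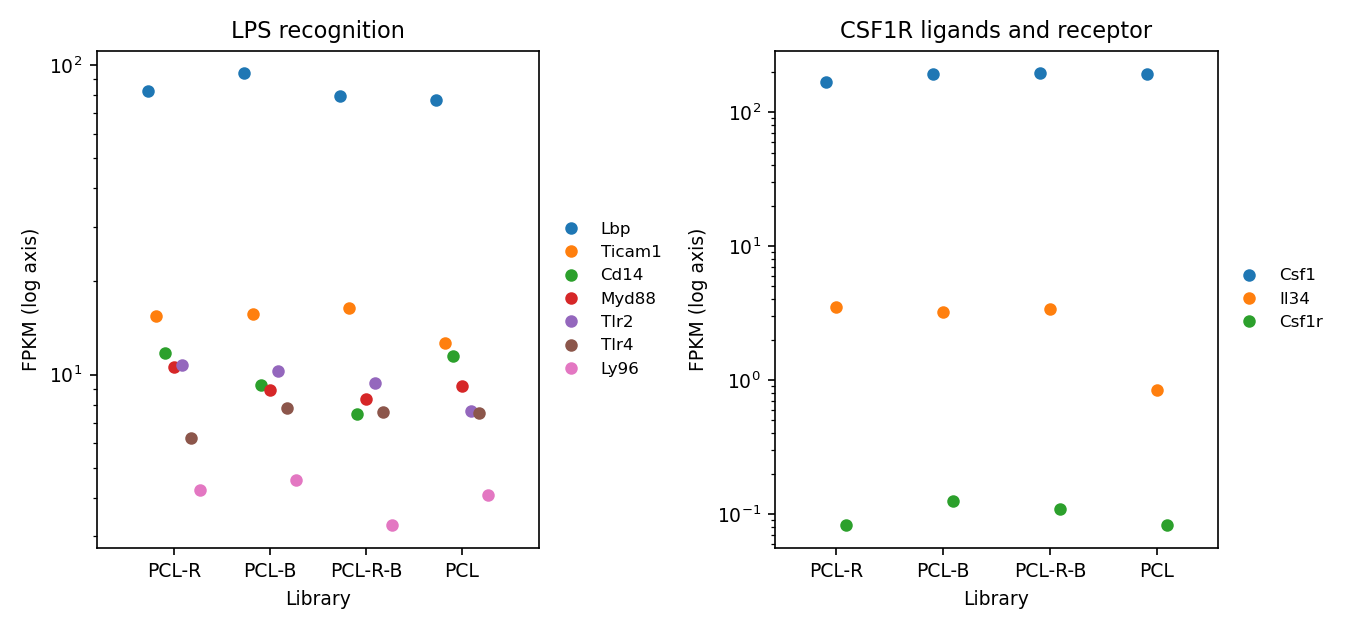
FPKM on a logarithmic axis in each library. Genes of LPS recognition and Toll-like receptor signalling are at the left, and the ligands and receptor of the CSF1R pathway at the right. Each point is 1 gene in 1 library, with no error bar. Cd14 lies at 11.7, 9.27 and 7.47 FPKM in PCL-R, in PCL-B and in PCL-R-B, against 11.5 in PCL, and Csf1r lies far below Csf1 in each library.

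The libraries were not separated by counting error for Cd68. Cd68 (ENSMUSG00000018774, chromosome 11, 69664213 to 69666153, minus strand) encodes a lysosomal glycoprotein of the LAMP family that is abundant in macrophages and present at lower levels in other cells. It had 123, 123 and 107 reads in PCL-R, in PCL-B and in PCL-R-B, against 81 reads in PCL. These are 5.82, 5.49 and 5.35 FPKM, against 4.41 FPKM in PCL. The 3 ratios to PCL were 1.32, 1.25 and 1.21 for PCL-R, for PCL-B and for PCL-R-B, and the interval of each included 1. Lamp1, the ubiquitous member of the family, had 294, 257 and 244 FPKM in PCL-R, in PCL-B and in PCL-R-B, against 217 FPKM in PCL. The FPKM of Lamp1 was 50.6, 46.8 and 45.6 times that of Cd68 in PCL-R, in PCL-B and in PCL-R-B, against 49.3 times in PCL. Over the lysosomal list, 22 genes had a mean count of at least 10, and their median log2 ratio to PCL was 0.44 in PCL-R, 0.28 in PCL-B and 0.25 in PCL-R-B, beside medians of -0.05, -0.01 and -0.00 over all genes with that mean count. The log2 ratios of Cd68, 0.40, 0.32 and 0.28, lay close to those list medians. Cd68 is itself on the list and its intervals included 1, so this closeness does not show a shared change. In PCL-R the list held ratios to PCL as far apart as 0.179 (Ctsc) and 2.14 (Grn).

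Lyz2 varied most among the 3 detected genes. Lyz2 (ENSMUSG00000069516, chromosome 10, 117277331 to 117282321, minus strand) encodes the lysozyme of macrophages and granulocytes. It had 78, 63 and 31 reads in PCL-R, in PCL-B and in PCL-R-B, against 37 reads in PCL. These are 3.53, 2.69 and 1.48 FPKM, against 1.92 FPKM in PCL. From the highest level to the lowest the order was PCL-R, PCL-B, PCL and PCL-R-B, and neighbours in it were not separated by counting error. PCL-R over PCL was 1.83 (interval 1.22 to 2.79), whereas the ratios of PCL-B (1.4, interval 0.917 to 2.16) and PCL-R-B (0.769, interval 0.462 to 1.27) to PCL had intervals that included 1. PCL-R-B over PCL-B was 0.551 (interval 0.346 to 0.859). PCL-R-B over PCL-R was 0.42 (interval 0.267 to 0.644), the widest gap between libraries for Cd14, Cd68 and Lyz2. Lyz1, the close paralog whose reads can be hard to separate from those of Lyz2, had 0 reads in every library.

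No detected gene reached 2-fold in either direction against PCL. Of the 10 genes, 3 had a mean count of at least 10 over the 4 libraries (Cd14, Cd68 and Lyz2), and 0 of these 3 were at least 2-fold higher or lower in PCL-R, PCL-B or PCL-R-B. The background among 12161 genes with that mean count was 3.95% higher and 3.72% lower in PCL-R, 3.53% higher and 1.41% lower in PCL-B, and 3.59% higher and 1.73% lower in PCL-R-B. At these shares a count of 0 among 3 genes does not set the genes apart. Among genes with that mean count, the 5th to 95th percentile ran from 0.539-fold to 1.87-fold in PCL-R, from 0.666-fold to 1.77-fold in PCL-B and from 0.662-fold to 1.79-fold in PCL-R-B. Of the ratios of Cd14, Cd68 and Lyz2 to PCL, only that of Cd14 in PCL-R-B (0.648) lay outside these ranges.

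**Figure D3:**
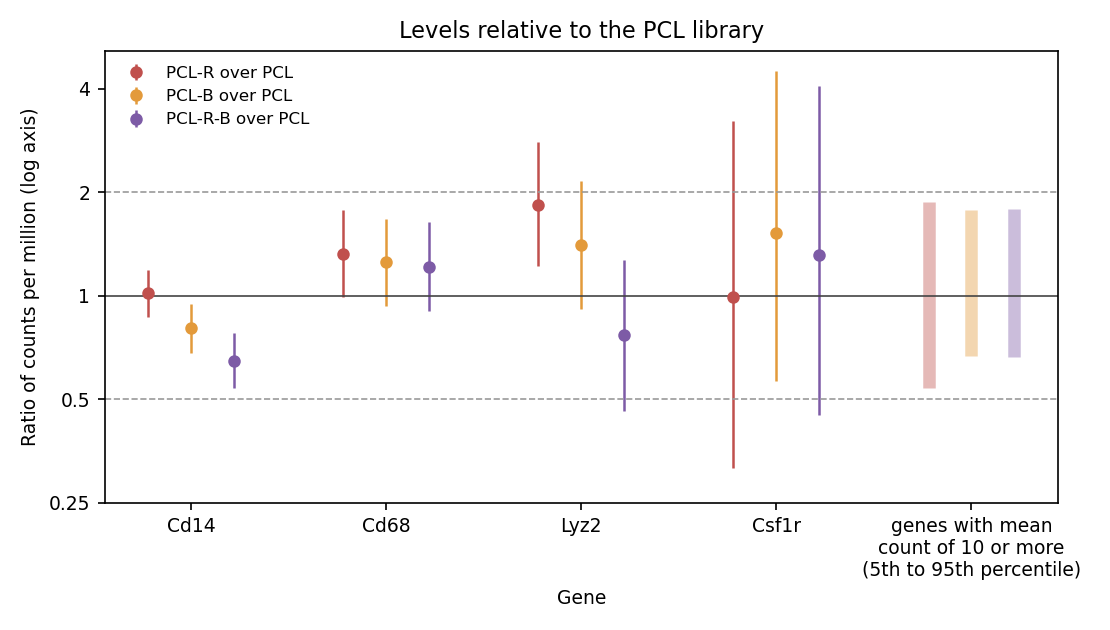
Ratio of scaled counts to the PCL library, on a logarithmic axis, for Cd14, Cd68, Lyz2 and Csf1r in PCL-R, in PCL-B and in PCL-R-B; bars are exact 95% intervals for counting error, dashed lines mark 2-fold, and pale bars at the right span the 5th to 95th percentile of genes with a mean count of at least 10. The Cd14 ratios are 1.02, 0.804 and 0.648 in PCL-R, in PCL-B and in PCL-R-B, and the Csf1r intervals are the widest.

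The summed level of the 10 genes followed Cd14, which held 61.5% of their reads. The sum was 33, 27.8 and 22.5 CPM (counts scaled to the library's summed counts) in PCL-R, in PCL-B and in PCL-R-B, against 28.7 CPM in PCL. The ratio to PCL was 1.15 (interval 1.01 to 1.31) for PCL-R, 0.967 (0.847 to 1.1) for PCL-B and 0.783 (0.678 to 0.903) for PCL-R-B. Without Cd14 these ratios were 1.45, 1.34 and 1.09, so the lower sum in PCL-R-B rested on that gene. No interval is given for the ratios without Cd14, so 1.09 is not read as a higher level. In PCL-B the interval of the sum over all 10 genes included 1. The other 7 genes, those below 1 FPKM, summed to 13, 23 and 14 reads in PCL-R, in PCL-B and in PCL-R-B, against 10 reads in PCL.

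Leukocyte genes beyond the 10 were mostly near 0. Of 95 further genes in lists for leukocytes in general, macrophages, osteoclasts, neutrophils, T and NK cells, B cells, dendritic cells and mast cells, 64 (67.4%) had at most 3 reads in every library, beside 36.4% of all genes, and 35 (36.8%) had 0 reads throughout, beside 26.7% of all genes. Another 6 (6.32%) reached 1 FPKM in every library, beside 45.8% of all genes, namely Arhgdib, Hcls1, Lsp1, Mertk, Mpeg1 and Nfatc1. Arhgdib, of the list for leukocytes in general, averaged 49.7 FPKM, and Lsp1 of the same list averaged 5.29 FPKM. Mertk, the receptor for uptake of apoptotic cells, averaged 18.2 FPKM. Of the 27 macrophage-list genes in the table, 8 had 0 reads in every library, among them C1qa, Marco, Vsig4, Timd4, Ms4a7 and Cd86. Others of that list had a few reads in each library. Cybb had 7, 28 and 4 reads in PCL-R, in PCL-B and in PCL-R-B, against 15 in PCL. Fcgr1 had 13, 12 and 15 reads, against 3 in PCL. No gene of the neutrophil, T and NK cell, B cell, dendritic or mast cell lists averaged 1 FPKM.

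**Figure D4:**
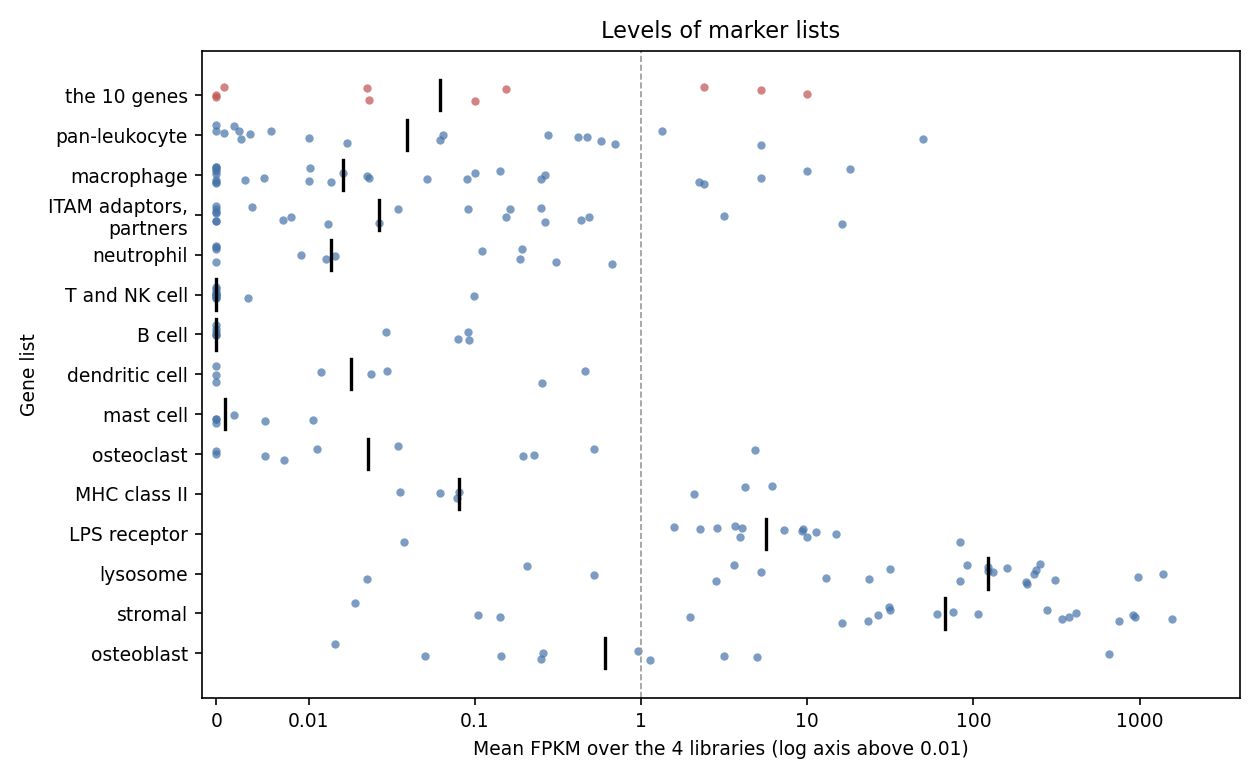
Mean FPKM over the 4 libraries for every gene of 15 lists, on a logarithmic axis above 0.01; each point is 1 gene, the black tick is the list median and the dashed line marks 1 FPKM. The median of the 10 genes is 0.0617 FPKM and that of the macrophage list 0.0161 FPKM, while the lysosome and stromal medians are 122 and 67.8 FPKM.

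Mpeg1 and Cd74 were both highest in PCL-B, and the detected H2-DM genes of the class II list were highest in PCL-R. Mpeg1, which encodes the pore-forming perforin-2 of phagocytes, had 91, 287 and 149 reads in PCL-R, in PCL-B and in PCL-R-B, against 110 reads in PCL. Its ratio of PCL-B over PCL was 2.14 (interval 1.71 to 2.69), whereas Cd14 and Lyz2 had their highest levels in PCL-R. Cd74, the class II invariant chain gene, had 66, 105 and 51 reads in PCL-R, in PCL-B and in PCL-R-B, against 15 reads in PCL, with ratios of 3.83, 5.74 and 3.12. H2-DMa and H2-DMb1 encode the chains of the peptide exchange factor of the class II pathway. H2-DMa had 8.8, 5.6 and 5.68 FPKM in PCL-R, in PCL-B and in PCL-R-B, against 4.5 FPKM in PCL. H2-DMb1 had 5.8, 4.44 and 4.15 FPKM in PCL-R, in PCL-B and in PCL-R-B, against 2.52 FPKM in PCL. The antigen-presenting class II genes H2-Aa, H2-Ab1 and H2-Eb1 each stayed at 12 reads or fewer in every library.

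The genes with the profile most like the mean of Cd14, Cd68 and Lyz2 were Dtd1, Jmjd8, Fam110a, Cfp and Faap24, out of 9972 genes with a mean count of at least 100. Likeness was the Euclidean distance between centred log2 profiles over the 4 libraries, and it ranged from 0.030 for Dtd1 to 0.103 for Faap24. Dtd1 had 5.74, 4.63 and 3.55 FPKM in PCL-R, in PCL-B and in PCL-R-B, against 4.16 FPKM in PCL. Cfp, the gene of the complement regulator properdin, had 5.96, 5.37 and 4.02 FPKM, against 4.65 FPKM in PCL. Cd14, Cd68 and Lyz2 did not share this mean profile. In PCL their centred log2 values were 0.23, -0.25 and -0.24, beside -0.09 for the mean. In PCL-R-B they were -0.40, 0.03 and -0.62, beside -0.33 for the mean. In PCL-R all were positive, at 0.25, 0.15 and 0.63. The named genes were thus like an average, and likeness to Cd14, Cd68 or Lyz2 singly was not tested. With 4 libraries such likeness is a description only.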

How the data were processed

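RNA sequencing of the stromal cultures was read from the deposited table of all genes. Per the file headers, the authors gave a read count and an FPKM value per gene for each library. Each deposited FPKM equalled the count divided by the deposited gene length and by a constant that was 1.000 times the library's summed counts. Per the submitters' processing notes the build was mm10. Aligner, counter, strandedness and annotation were not given in the sources used here. Coordinates are as deposited, and those of the 10 genes equalled GENCODE M21 (GRCm38).

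Counts were scaled by the summed counts. Levels have exact Poisson intervals, and ratios have exact conditional (Clopper-Pearson) intervals, both at 95% and for counting error only. Genes with a mean count of at least 10 entered the 2-fold background, and a count of 0 was taken to allow 3 reads. Named genes were the 10, the 3 highest genes by mean FPKM of each of 18 other lists, further leukocyte-list genes with a mean of at least 1 FPKM, the 5 nearest profiles, and paralogs or ligands of the 10. Of these only some are printed, and other names were chosen after their values were seen. The 10 genes and the lists were chosen with earlier results of these data known. Alternatives were edgeR 4.0.16 TMM factors, median-of-ratios size factors, deposited FPKM, other thresholds and totals without mitochondrial genes. The ratio rule was tested on simulated counts that held counting error only. That test cannot speak to the spread between cultures. The 8 per-library columns of the mitochondria table were not used. Intervals were computed with SciPy 1.17.1 under Python 3.11.15, and edgeR ran under R 4.3.3.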

Additional observations from a re-analysis of the deposited data

How the results depend on the processing

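The number of genes at 1 FPKM in every library was 3, and 1 at a threshold of 5 FPKM; at 0.1 FPKM, and at 1 FPKM in at least 1 library, it was 3. The number at least 2-fold away from PCL was 0 for each library and direction. At a fold of 1.5 it was 1 higher in PCL-R (Lyz2) and 1 lower in PCL-R-B (Cd14). With every gene that had a read in both libraries it was 1 higher in PCL-R, 2 higher in PCL-B and 1 lower in PCL-R-B, from genes with at most 7 reads. The share of all genes is not given at either of these settings, so these counts do not set the genes apart. The summed ratio to PCL was 1.15, 0.967 and 0.783 for PCL-R, for PCL-B and for PCL-R-B. Without Cd14 it was 1.45, 1.34 and 1.09, with no interval given, which took PCL-R-B from below 1 to above 1. Under the other scalings it ran from 1.14 to 1.19, from 0.956 to 0.988 and from 0.771 to 0.805. All 56 alternative ratios of single genes stayed within their counting intervals. For a single gene the deposited FPKM gives the same ratio by construction. The largest shift of a library by another scaling was -0.050 log2, in PCL-R, so this outcome was near fixed in advance. No paired analysis was possible because each name has 1 library, and leaving out a replicate was not possible for the same reason. Genes with a few reads have intervals too wide to order the libraries.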
